A study of Homo sapiens with 6 samples.

Results

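Cyclins, cyclin-dependent kinases (CDKs) with their inhibitors, CDC genes and minichromosome maintenance (MCM) genes were examined by the ribosomal footprints on their mRNAs. The members were the protein-coding genes of the count table whose symbols have the form CCN and a letter, CDK and a number, CDKN1 to CDKN3, CDC and a number, or MCM and a number. There were 28 members among 9675 genes. All footprints came from HEK293T, a human embryonic kidney cell line, grown for 48 h and fixed in 0.3% formaldehyde for 5 min before lysis and RNase I digestion. Counts were given for 40S complexes pulled down with a goat polyclonal antibody against eIF3b (947733 footprints) and for unselected 40S complexes, library 40S 1 (834172 footprints). Both groups are the same untreated line with no genetic change named in the labels, and each was 1 library, so no difference below has a replicate check. Ranges in brackets are exact 95% Clopper-Pearson intervals. They cover counting error only, since each group was 1 library. Duplicated PCR reads cannot be recognised without molecular identifiers and would make these intervals too narrow. Where a pair of counts is given, the eIF3b-bound library comes first and 40S 1 second. Gene counts of the second 40S library, the 80S libraries and the mRNA library were not used here. For a low count, fewer mRNA molecules and fewer 40S complexes per mRNA therefore cannot be told apart. A ratio between the libraries sets counts of the same gene in the same line against each other, so its mRNA amount enters both sides.

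A typical cyclin binds a CDK and switches the kinase on, and waves of cyclin synthesis and destruction order the cell cycle. The inhibitors encoded by CDKN genes hold CDKs back, CDC25 phosphatases release them, and the anaphase-promoting complex (APC/C), a ubiquitin ligase, marks mitotic cyclins for destruction. MCM proteins form the helicase that CDC6 helps to load on replication origins and that CDC7 phosphorylates when origins fire. The symbols are historical, and several members act elsewhere: CDK8, CDK12 and CDC73 in transcription, CDK5 in neurons, and CDC123 in the assembly of initiation factor eIF2. eIF3 is the initiation factor that binds the 40S subunit and helps bring it to mRNA.

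Promoters were the only sequences of the members examined. E2F factors drive many genes of DNA replication, and the E2F words searched on both strands were TTTCCCGC, TTTGGCGC, TTTGCCGC and TTTCGCGC. RefSeq windows (GRCh38.p14) from 250 bases before to 50 bases after the annotated start were matched by symbol for 24 of the 28 members. At least 1 window of 8 of these 24 genes (33.3%) held a word: CCNO, CDC20B, CDC25A, CDC6, CDC7, MCM6, MCM7 and MCM8. Among the genes of the count table with a window it was 306 of 6429 (4.76%). Counted over single windows, since some genes have several, it was 25% of 32 member windows and 4.12% of 7894. A match is a description of letters, not a proven binding site. The stretches below show 5 of these matches, each with its word in capitals, on the gene's strand, with positions counted from the annotated start as +1. CDC25A, CDC6 and MCM6 hold TTTGGCGC there, CDC7 TTTCCCGC and MCM7 TTTCGCGC. In MCM6 a second word, TTTCGCGC on the opposite strand, overlaps the one in capitals, the word of CDC6 lies past the annotated start, and the stretch of MCM7 reaches past it.
CDC25A, chr3:48188444-48188471, minus strand, word from -44: gtggattccgTTTGGCGCcaactaggaa
CDC6, chr17:40287876-40287903, plus strand, word from 8: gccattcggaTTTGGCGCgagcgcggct
CDC7, chr1:91501034-91501061, plus strand, word from -68: tgcagttcctTTTCCCGCcccccttcgg
MCM6, chr2:135876516-135876543, minus strand, word from -90: attggtcaggTTTGGCGCgaaatctcca
MCM7, chr7:100101389-100101416, minus strand, word from -9: gggggcgacgTTTCGCGCcaatttcggt

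The other motifs were no more frequent than elsewhere or too few to read. The CHR words TTTGAA and TTCGAA, an element of late cell cycle promoters, stood in 4 of 24 members and in 16.7% of the genes of the count table, which is the same share. A C at the annotated first base followed by at least 4 pyrimidines, the form of a 5′ terminal oligopyrimidine tract, stood in 2 of 24 members against 5.21%.

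The first comparison asked whether these mRNAs were more or less represented on eIF3b-bound 40S complexes than on 40S 1. As a group they lay close to the median gene, with members on both sides of it. The members held 6079 footprints of the eIF3b-bound library (0.641%) and 4026 of 40S 1 (0.483%). The quantity compared is the log2 ratio of CPM, counts scaled to the library total, with a prior count of 0.5. It was taken where a gene's counts in both libraries summed to 20 or more, and is read against the median gene. Of the members 24 passed this minimum, with a median ratio of 0.41, against 0.25 over all 4175 genes that passed. A member counts as above or below when it lies at least 2-fold from the median gene. Other scalings shift every ratio by the same amount, and with totals that leave out 10 very abundant genes the median gene stood at -0.22, so positions are given against it. Above lay 3 members, CCNO, CDC26 and CDKN2C, or 12.5%, against 18.2% of all genes. Below lay 2, CDC7 and CDK12, or 8.33%, against 22.2%. Neither share exceeded that of all genes, and 19 of the 24 members lay within 2-fold, against 2488 of the 4175 genes. The 4 members under 20 counts get no ratio: CCNB3 had 17 and 1 counts, CCNI2 1 and 12, CDKN2D 2 and 6, and CDC20B 5 and 1.

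**Figure D1:**
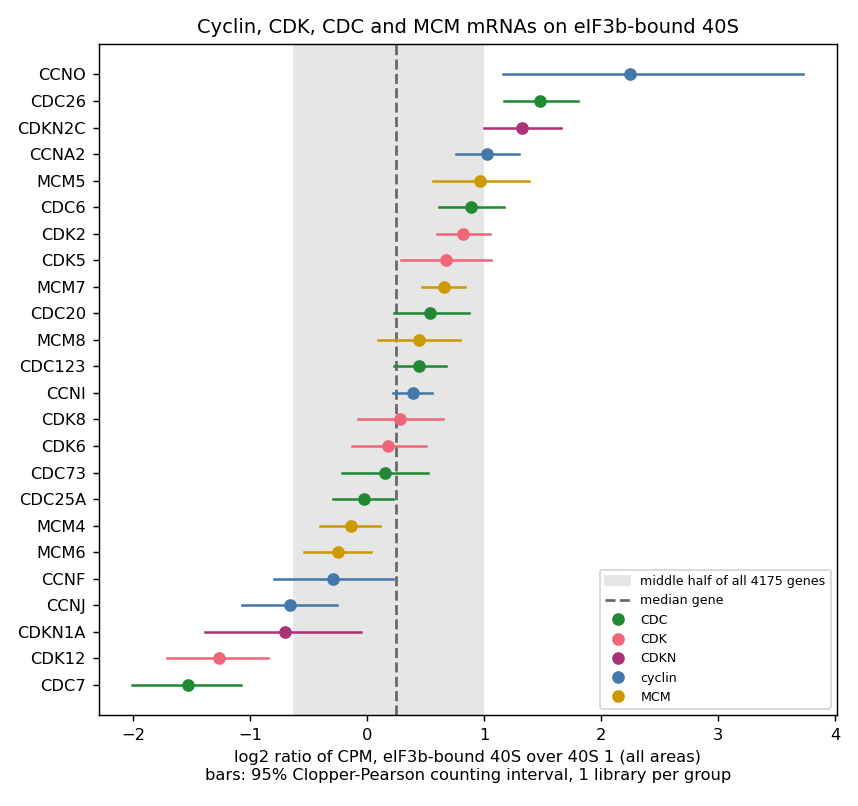
Log2 ratio of CPM, eIF3b-bound 40S over 40S 1, over all areas, for the 24 members with at least 20 counts; bars are 95% counting intervals, the dashed line is the median gene and the grey band spans the quartiles of all genes. Values run from -1.53 (CDC7) to 2.25 (CCNO), and each of the 5 symbol families has points on both sides of the median gene.

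Among the members grouped here as cell cycle cyclins, CCNA2 was on the high side and CCNF was not. CCNA2 encodes cyclin A2 of S phase and G2 (chromosome 4, 121816444 to 121823883, GRCh38) and had 382 and 165 footprints, a log2 ratio of 1.02 (0.76 to 1.30). Its leader, the 5′ UTR, held 346 of those 382 footprints but only 62 of the 165 in 40S 1. The coding sequence went the other way, with 11 footprints against 67, beside 16 and 7 at the start codon, 0 and 4 at the stop codon and 9 and 25 in the 3′ UTR. Across all areas CCNA2 thus stood 0.77 above the median gene, short of 2-fold. Its annotated span overlaps EXOSC9. Whether the counting used strand is not stated, so the counts of 11 members whose spans overlap another gene may hold reads of that gene. Protein-coding genes overlap 5 of them, CCNA2, CCNI2, CDC20B, CDC73 and MCM7, and lncRNA genes the other 6, CCNF, CCNJ, CDC7, CDK6, CDKN1A and MCM8. CCNF encodes cyclin F, the F-box protein after which that domain was named, and had 65 and 70 footprints, a ratio of -0.29 (-0.80 to 0.22). Its leader held 13 and 0 footprints. Taking 3 counts as the limit that a count of 0 allows, 0 of 70 allows a share of up to 4.29%, and the exact interval reaches 5.13%.

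The other cyclins ranged more widely. CCNI, which encodes cyclin I and had the most footprints of all members, had 769 and 518 counts, a ratio of 0.39 (0.22 to 0.55). Leader footprints numbered 673 and 214, and coding sequence footprints 65 and 215. CCNJ had 89 and 124 counts, a ratio of -0.66 (-1.07 to -0.26). Its 3′ UTR held 102 of the 124 footprints in 40S 1 and 41 of the 89 in the eIF3b-bound library. CCNO, whose product takes part in making multiciliated cells, had the highest ratio, 2.25 (1.16 to 3.73), from only 40 and 7 counts. Of those, 27 and 5 lay in the 3′ UTR, so the leader, with 3 and 0 counts, had little part in it.

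The kinase genes differed in where the eIF3b-bound library exceeded 40S 1. CDK2, the partner of cyclins E and A, had 482 and 240 footprints, a ratio of 0.82 (0.60 to 1.05). Leader counts were 284 and 64, start codon counts 60 and 12, coding sequence counts 104 and 38, and 3′ UTR counts 34 and 126. CDK2 thus was higher in the eIF3b-bound library in the coding sequence too (ratio 1.26, 0.72 to 1.84), where the median gene was lower (-0.64). CDK6, a kinase of G1 that binds D cyclins, had 192 and 149 footprints, a ratio of 0.18 (-0.13 to 0.50). Its leader counts were 123 and 90, with 60.4% of all CDK6 footprints of 40S 1 in the leader. The leader ratio of 0.26 (-0.14 to 0.68) was the lowest of any member, and 2.45% of all measured leaders lay lower. Footprints in its coding sequence numbered 0 and 4. The lncRNA genes CDK6-AS1 and LOC112268009 overlap its span.

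Of the CDKs with other roles, CDK12 was low and CDK5 and CDK8 were near the median gene. CDK12 phosphorylates RNA polymerase II and had 70 and 149 footprints, a ratio of -1.27 (-1.71 to -0.85). From the leader through the start codon, coding sequence and stop codon to the 3′ UTR, its 5 areas held 26, 2, 15, 0 and 27 footprints with eIF3b and 10, 2, 50, 0 and 87 in 40S 1. The leader was therefore higher with eIF3b, and 40S 1 had the larger coding sequence and 3′ UTR counts. Against the median of each area, the leader stood at -1.12 and the coding sequence at -1.25, both past 2-fold. The 3′ UTR, at -0.33, lay within 2-fold. CDK8, the kinase of Mediator, had 151 and 109 (0.28, -0.08 to 0.65), with 135 and 15 in the leader and 2 and 53 in the 3′ UTR. CDK5 had 163 and 90 (0.67, 0.29 to 1.06), with 68 and 32 in the coding sequence but 14 and 21 at the start codon.

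The 2 measured inhibitors lay on opposite sides. CDKN2C encodes p18, an inhibitor of CDK4 and CDK6, and had 298 and 105 footprints, a ratio of 1.32 (1.00 to 1.66). Its 5 areas held 258, 20, 18, 0 and 2 footprints with eIF3b and 72, 2, 16, 0 and 15 in 40S 1. Most CDKN2C footprints of both libraries thus lay in the leader. CDKN1A encodes p21, the inhibitor induced by p53, and had 34 and 49 footprints, a ratio of -0.70 (-1.39 to -0.05). Its areas held 21, 11, 2, 0 and 0 footprints against 10, 3, 15, 0 and 21. With 0 against 21, the 3′ UTR was 7.95-fold lower in the eIF3b-bound library if 3 counts are taken there as the floor. This value takes the 21 counts as exact. The exact interval of the log2 ratio reaches -2.56, a smaller difference.

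The CDC genes included the highest and the lowest of the members with at least 50 counts. CDC26 encodes a small APC/C subunit and had 359 and 113 footprints, a ratio of 1.48 with a lower bound of 1.17. Its areas held 304, 14, 24, 0 and 17 footprints against 63, 25, 12, 1 and 12. The start codon area was the exception, with 14 against 25, while the leader and the coding sequence were higher with eIF3b. CDC20, an APC/C activator, had 224 and 135 footprints (0.54, 0.23 to 0.87), with 142 and 23 in the leader and 31 and 80 in the coding sequence. CDC25A, the phosphatase that activates CDK2 at G1/S, had 272 and 245 (-0.03, -0.29 to 0.22). Its near-equal totals hid opposite areas, with 209 and 22 in the leader, 37 and 138 in the coding sequence and 17 and 85 in the 3′ UTR. Over all genes the median ratios of these areas, 2.27, -0.64 and -1.53, had the same directions.

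The replication genes CDC6 and CDC7 differed. CDC6, a loader of MCM, had 333 and 158 footprints, a ratio of 0.89 (0.61 to 1.17), with 278 and 45 in the leader and 31 and 74 in the coding sequence. CDC7, the kinase of MCM, had 56 and 143, the lowest ratio of any member at -1.53 (-2.01 to -1.08). Its areas held 36, 10, 3, 0 and 7 footprints against 10, 11, 65, 0 and 57. The coding sequence of CDC7, with 3 against 65, had a ratio of -4.41 (-6.94 to -3.01), and 2.16% of all measured coding sequences lay lower. Each has an E2F word in its window, a different one, as shown above. CDC123 had 441 and 285 footprints (0.44, 0.23 to 0.67) and was the only one of the 23 members with at least 20 counts in each library to have over 50% of both libraries' footprints in the coding sequence. These numbered 247 and 205, beside 133 and 38 at the start codon and 38 and 6 in the leader. CDC73, a subunit of the PAF1 elongation complex, had 141 and 112 (0.15, -0.22 to 0.52), with 68 and 5 in the leader, the highest leader ratio of any member at 3.45 (2.29 to 5.25). Its span overlaps B3GALT2.

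Of the helicase genes, MCM5 and MCM7 lay above the median gene and MCM4 and MCM6 below it, none by 2-fold. MCM5 had 162 and 73 footprints, a ratio of 0.96 (0.56 to 1.38). MCM7 had 688 and 384 (0.66, 0.47 to 0.84). MCM4 had 259 and 252 (-0.14, -0.40 to 0.11), and MCM6 204 and 214 (-0.25, -0.54 to 0.03). The subunits assemble in equal numbers into 1 ring, and the ratio is not a measure of their protein amounts. The intervals of MCM5 and MCM7, which cover counting error only, did not overlap those of MCM4 and MCM6. Start codon footprints numbered 73 and 17 in MCM4, 43 and 8 in MCM5, 50 and 17 in MCM6, and 125 and 44 in MCM7. They were 18.2% (MCM7) to 28.2% (MCM4) of the gene's eIF3b-bound footprints, against 18% over all genes, and CDC123 had 30.2%. In 40S 1 the 4 shares were 6.75% (MCM4) to 11.5% (MCM7), against 8.52% over all genes. The leader ratios of these 4 genes spread more widely, but rest on few 40S 1 counts in MCM5 and MCM6. They were 1.39 (0.84 to 2.00) in MCM4 from 105 and 35 counts, and 1.58 (1.26 to 1.91) in MCM7 from 354 and 104. In MCM5 the leader ratio was 2.85 (2.01 to 3.96) from 94 and 11, and in MCM6 3.29 (2.28 to 4.74) from 83 and 7. The interval of MCM4 ends just under that of MCM5. MCM7 overlaps AP4M1. MCM8, a helicase of recombination outside this ring, had 180 and 117 footprints (0.44, 0.09 to 0.79), with 159 and 20 in the leader and 8 and 42 in the coding sequence.

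The next comparison asked where on these mRNAs the footprints lay, gene by gene. The leader took a larger share of a member's footprints in the eIF3b-bound library than in 40S 1 in 23 of the 23 members with at least 20 counts in each library. Over all 3117 such genes it was 84.8%, where a gene without leader footprints in either library counts as not larger. The median leader share of these members was 61.8% with eIF3b and 15.1% in 40S 1, against 46.9% and 9.52% over all such genes. CCNA2 had the largest leader share in the eIF3b-bound library at 90.6%, and CDC123 the smallest at 8.62%. In CDK6 the intervals of the leader shares overlapped, at 64.1% (56.8 to 70.8%) with eIF3b and 60.4% (52.1 to 68.3%) in 40S 1. The coding sequence share was higher in the eIF3b-bound library in only 2 members, CDK2 and CDK5, against 25.7% of all genes. Pooled over all 28 members, the leader held 63.3% (62 to 64.5%) and 22.6% (21.3 to 23.9%), the start codon area 11.1% and 6.23%, the coding sequence 16.2% and 38.6%, the stop codon area 0.214% and 0.596%, and the 3′ UTR 9.2% and 31.9%. Over all genes the leader held 50.7% and 11%, the start codon area 18% and 8.52%, the coding sequence 17.2% and 31.8%, the stop codon area 0.567% and 1.34%, and the 3′ UTR 13.6% and 47.3%. Pooled in this way, the members had more of their footprints in leaders and fewer at start codons and in 3′ UTRs than all genes together, in both libraries. In the eIF3b-bound library the members' 3′ UTR share depended on pooling. As an unweighted mean over 22 members with at least 50 counts in each library, it was 13.5%, against 9.2% pooled. No such mean was taken over all genes, so whether the difference from all genes holds without pooling was not tested. Pooled shares weigh abundant genes most, and 10 genes held 28.9% of the 40S 1 counts. An area's length enters its share.

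**Figure D2:**
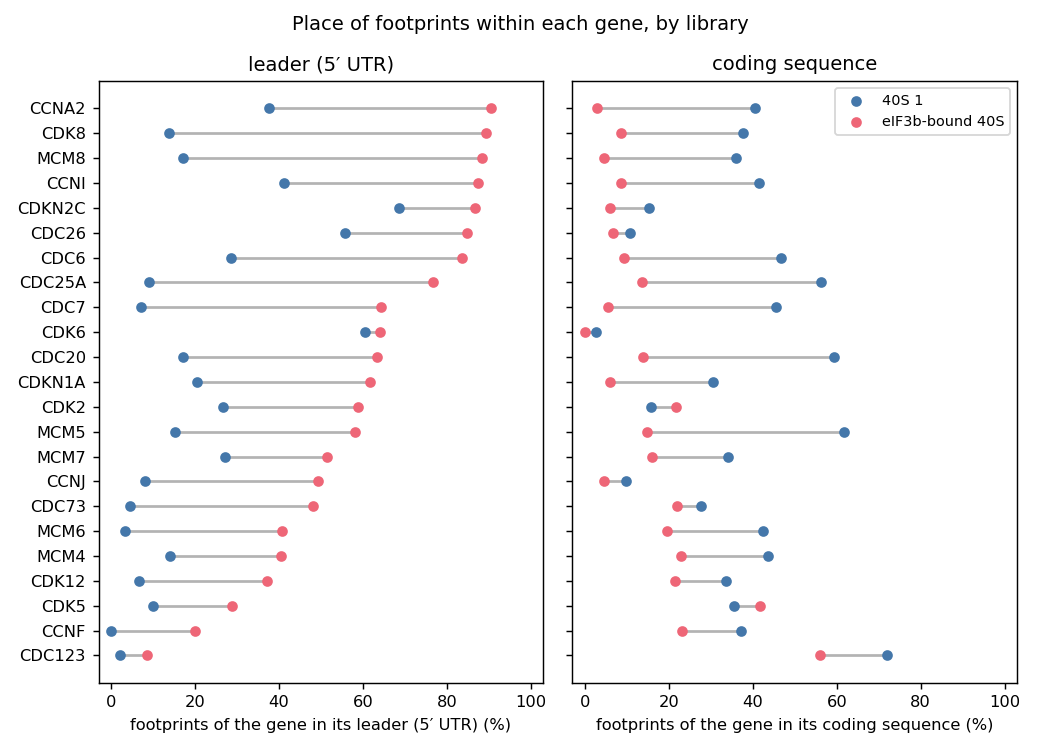
Share of each gene's footprints (%) in the leader (left) and the coding sequence (right), in 40S 1 (blue) and in the eIF3b-bound library (red), for the 23 members with at least 20 counts in each. Every red leader point lies right of its blue one, by the least in CDK6 (64.1% against 60.4%), and in the coding sequence only CDK2 and CDK5 have the red point on the right.

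Area by area, leaders and start codons of the members had medians near those of all genes, and coding sequences a lower one. The median leader ratio was 2.11 over 22 members, against 2.27 over 2407 leaders. At least 2-fold above the median leader lay 2 members, CDC73 and MCM6 (14.7% of all leaders), and below it 3, CDK6, CDKN1A and CDK12 (12.8% of all). At start codons the medians were 1.31 over 13 members and 1.22 over 1333 areas. There CDKN2C lay above, or 7.69% against 14.6% of all, from 20 and 2 counts. Below lay 4, CDC26, CDK5, CDC7 and CCNI, or 30.8% against 12.5% of all. These 4 rest on few footprints, 14 and 25, 14 and 21, 10 and 11, and 19 and 16. With a minimum of 50 counts 0 start codons lay below. In coding sequences the medians were -1.22 over 20 members and -0.64 over 2734 genes. Here 7 members lay below, CDC7, CCNA2, MCM8, CDC25A, CCNI, CDK12 and CDK8, or 35% against 21.4% of all coding sequences, and 3 above, CDK2, CDK5 and CDC26, or 15% against 22.4%. In 3′ UTRs the medians were -1.69 over 21 members, also with CDKN1A at the floor of 3 counts, and -1.53 over 2741 genes. Above lay CCNO, CDC26, CDK5, CDK6 and MCM7 (28.9% of all), and below CDKN1A, CDK8, CDC7 and CCNI (23.9% of all). No member had 20 footprints at the stop codon.

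**Figure D3:**
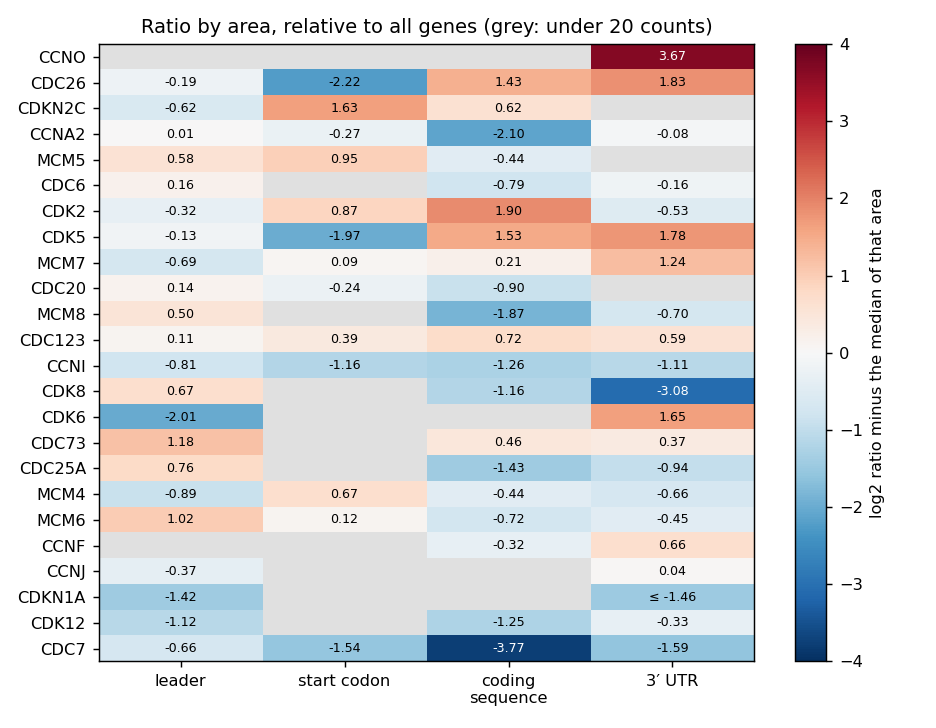
Log2 ratio of each area minus the median of that area over all genes, by member (rows) and area (columns). Rows are ordered by the ratio over all areas. Red is higher and blue lower in the eIF3b-bound library than the median area, and grey had under 20 counts. The 3′ UTR of CDKN1A, with 0 counts with eIF3b, is drawn at -1.46, its value at the floor of 3 counts. The coding sequence column runs from -3.77 (CDC7) to 1.90 (CDK2), and the leader column from -2.01 (CDK6) to 1.18 (CDC73).

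A ratio within a gene does not depend on library totals, so leader footprints were also set against coding sequence footprints. The log2 odds ratio, eIF3b-bound over 40S 1, was above 0 in all 19 members with 20 or more leader and 20 or more coding sequence footprints over both libraries, and in 97.6% of 1767 genes. The members' median was 3.64, against 3.10 over all genes. CDC7 was highest at 6.02 (exact interval 4.20 to 8.78), followed by MCM8 at 5.28, CDC25A at 5.10 and CCNA2 at 5.02. The lowest were CDK2 at 0.70 (-0.01 to 1.39), CDK5 at 1.25 (0.03 to 2.67) and CDC26 at 1.29 (0.06 to 2.41), whose coding sequences had ratios above the 2-fold line. Among the helicase subunits MCM6 had 4.65 (3.46 to 6.21) and MCM5 3.93 (2.77 to 5.29), while MCM4 had 2.46 (1.73 to 3.25) and MCM7 2.01 (1.52 to 2.52). The intervals of MCM6 and MCM7 did not overlap.

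**Figure D4:**
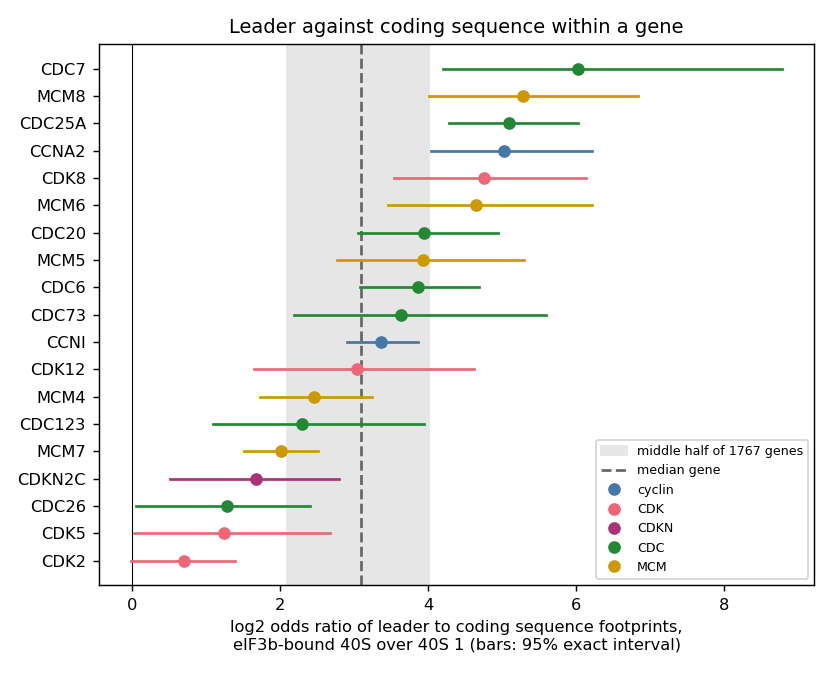
Log2 odds ratio of leader to coding sequence footprints, eIF3b-bound 40S over 40S 1, for 19 members, with exact 95% intervals; the dashed line is the median of 1767 genes and the grey band spans their quartiles. CDC7 (6.02) lies farthest right and CDK2 (0.70) farthest left, the only member whose interval reaches 0.

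Members with and without an E2F word had similar totals. The median ratio over all areas was 0.44 in 7 measured members with a word and 0.39 in 13 without one. By leader the medians were 2.60 over 6 and 1.99 over 12, and the ranges, 1.58 to 3.29 and 0.26 to 2.94, overlapped.

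Other genes of the same pathways also lay on both sides of the median gene. Of 100 listed genes of replication, G1/S control, mitosis and checkpoints 45 were measured, with a median ratio of 0.32, of which 6 passed the 2-fold line above the median gene and 9 the line below it. Over all genes 18.2% lay above and 22.2% below, and counts in lists this small are not read further. In replication 3 of 23 lay above and 5 below. GMNN, which encodes geminin, the inhibitor of MCM loading, had 864 and 214 counts, a ratio of 1.83 (1.61 to 2.05), with 767 and 109 in the leader. PCNA, the sliding clamp, was close to it at 1.78, RRM1, a subunit of ribonucleotide reductase, had 1.11, and TIPIN, of the fork protection complex, -0.07 with 1358 and 1260 of its 1496 and 1381 counts in the 3′ UTR. In G1/S control 1 of 10 lay above, MYBL2, a transcription factor, with 2.24. Below lay 3, named after their values were seen: LIN52 (-2.38) and LIN54 (-0.80), of a complex that represses or activates cell cycle genes, and RB1 (-1.91), the retinoblastoma protein that binds E2F. Within 2-fold lay CKS2, a CDK-binding protein, with 1.13, CUL1, a scaffold of ubiquitin ligases, with 1.01, and TFDP1, the partner of E2F, with 0.20. In mitosis and the APC/C 2 of 12 lay above and 1 below. MAD2L1, of the spindle checkpoint, had 1.44 from 551 and 179 counts, and ANAPC16, an APC/C subunit like CDC26, 0.79. PTTG1, which encodes securin, had 0.65, and FOXM1, a transcription factor of mitotic genes, -0.33. None of the 6 checkpoint genes listed had a measured value here.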

How the data were processed

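The authors deposited whole-number footprint counts for each gene and 5 transcript areas in 2 libraries, per the file headers. CASAVA 1.8, Bowtie 1.2.2, Bowtie2 2.2.6, TopHat2 2.1.0 and build GRCh38 are named in the submitters' processing notes; their roles, the use of strand, the rule for reads matching several genes and the bounds of the areas were not stated there. Libraries numbered 1 were paired-end with only read 1 used, per the labels. Paralogs and overlapping genes are therefore uncertain; 5 members overlap another protein-coding gene.

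Of 9675 identifiers 8322 matched a symbol and 1353 did not, so members among the latter would be missed. Log2 ratios of CPM used a prior count of 0.5 and a minimum of 20 counts in both libraries together, per gene or per area (numpy 2.4.6, pandas 2.3.3). The minimum acts on the sum, so a gene low in 1 library can pass through the other. Intervals came from scipy 1.17.1. With 1 library per group no test was run. TMM factors (edgeR 4.0.16, R 4.3.3) were an alternative only. Named genes were all members with at least 20 counts, with area counts from 100 counts upward and all 5 areas for the 3 highest and 3 lowest with at least 50, plus up to 4 genes with the most counts per pathway list. Values by area for members under these limits were added after they were seen. The members, gene lists and motifs were chosen with earlier results of these data known. No column was left unmapped (0).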

Additional observations from a re-analysis of the deposited data

How the results depend on the processing

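No paired analysis was possible because each group is 1 library. Scaling moved all genes together: the median gene stood at 0.25, and at -0.22 when the 10 top genes of 40S 1 were dropped from the totals, which hold 28.9% of its counts. The members' median over all areas, 0.41, was then -0.05, and 0.15 with TMM normalisation, where the median gene was -0.01. Because a change of scaling adds the same amount to every ratio, the distance of 0.16 from the median gene and the calls could not change under it. With a prior count of 2, which can change calls, the same 3 members lay above and 2 below. With a minimum of 50 counts CCNO dropped out. With a minimum of 1 count 5 members lay above and 4 below.

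Counts by area were less stable, since several rest on few footprints. With a prior count of 2, 0 leaders lay above. With a minimum of 50 counts, 1 leader lay above and 1 below, 0 start codons on either side, and 3 of the 3′ UTRs above and 2 below. With a minimum of 1 count, 4 start codons lay above, and 5 coding sequences above and 11 below. Of 143 alternative ratios of single members 30 moved past the counting interval, all of them under another scaling, which shifts every ratio together. Among members called above or below, 0 changed sides of the median gene, which a change of scaling could not bring about.

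Without CCNI, MCM7 and CDC123, the 3 members with the most counts, the eIF3b-bound shares were 66.5% in leaders, 9.52% at start codons, 13.5% in coding sequences and 10.3% in 3′ UTRs, and those of 40S 1 were 20.6%, 5.39%, 35.4% and 38%. As means over 22 members with at least 50 counts in each library, leaders held 60% and 3′ UTRs 13.5% with eIF3b, and in 40S 1 coding sequences held 36.6% and 3′ UTRs 34.8%. Over all alternatives run, the members' median ratio lay between 1.64 and 2.21 in leaders, 0.85 and 1.61 at start codons, -1.68 and -1.20 in coding sequences, and -2.15 and -1.59 in 3′ UTRs. Depth limits the small areas most: the interval of the CDKN2C start codon ratio, from 20 and 2 counts, ran from 1.10 to 6.28.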
